A study of Mus musculus with 3 samples.

Results

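Rskr (ribosomal protein S6 kinase related, ENSMUSG00000037593) was examined as 1 gene of the 32285 features counted in sorted mouse retinal horizontal cells. The cells were taken on postnatal days 6, 8 and 11 (P6, P8 and P11). Rskr was chosen by its measured counts, as the gene with the highest P11 to P6 ratio in earlier results of these data, so its levels by age are given as a description and no test is made on them. The study held 3 single-cell libraries, 1 for each age. All came from Tg(Cx57icre;Ai14) mice, in which a Cre recombinase tied to connexin 57, the gap junction gene Gja10 of horizontal cells, switches on the red fluorescent reporter of Ai14. Retinas were taken apart with papain and the labelled cells were sorted by fluorescence and captured in droplets with a 3' chemistry. The number of mice behind a library, their strain background and any treatment were not stated in the labels, which name no treated or control group. With 1 library per age, age cannot be told apart from the library, no test between ages was possible, and every interval covers counting error alone.

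Horizontal cells are the lateral inhibitory interneurons of the outer retina. They feed back onto photoreceptors and are connected to one another by gap junctions, and their dendrites settle into the outer plexiform layer in the days covered here. Rskr encodes a predicted serine/threonine kinase whose kinase domain resembles those of the ribosomal S6 kinases. That family belongs to the AGC kinases, named after protein kinases A, G and C. Its p90 branch (RSK, the Rps6ka genes) acts below ERK and its p70 branch (the Rps6kb genes) acts below the mTORC1 complex, and both can phosphorylate ribosomal protein S6. Much less is established about Rskr itself.

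A barcode was taken as a horizontal cell when it had at least 1000 detected genes, at most 10% of its unique molecular identifiers (UMIs, each standing for 1 captured transcript) from mitochondrial genes, and a UMI of at least 2 of the transcription factor genes Lhx1, Onecut1 and Onecut2. The kept cells were 7145 of 9896 P6 barcodes, 3153 of 4635 P8 barcodes and 4757 of 5517 P11 barcodes, with median depths of 12161, 20671 and 22106 UMIs. The kept cells held 82305608, 62520239 and 103160766 UMIs. Of the 10 listed horizontal cell markers, 7 took no part in the gate, and all 7 were detected in every library. Their summed levels in age order were 5328, 9692 and 17089 counts per 1000000 UMIs (CPM), and the median share of cells with a UMI of each was 95.8%, 99.4% and 99.8%. The lowest share was that of Gja10, at 10.4%, 39.5% and 40.1% of cells. Rod markers summed to between 7.57 and 9.95 CPM and cone markers to at most 1.11 CPM. Ganglion cell markers summed to 1298, 1382 and 833 CPM, mostly Nefl, a neurofilament gene. Amacrine markers summed to 523, 512 and 499 CPM, bipolar markers to 230, 91.8 and 117, and Müller glia markers to 165, 163 and 239, mostly Glul. Their part in the Rskr levels was not tested. The P8 library held 0 UMIs of Xist, the X inactivation RNA of female cells, against 46866 at P6 and 31983 at P11, and 2985 of its 3153 cells held a UMI of a Y-linked gene. It also had the lowest level of the nuclear RNA Malat1, at 15319 CPM against 20337 and 21409. Barcode sequences shared between libraries numbered 8 to 15 per pair.

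Rskr lies on the forward strand of chromosome 11, from 78290841 to 78296805 in mm10, a span of 5965 bases. GENCODE lists 6 transcripts there, of which 1 is protein coding, with 9 exons and an end at 78293745, and the others are retained-intron forms. The gene before it, 2610507B11Rik, is read in the same direction and ends 217 bases ahead of the Rskr start. The sequence of that gap is shown because it is all the DNA that separates Rskr from a gene whose age profile differed from its own (below). It was read 5' to 3' on the forward strand from chr11:78290624-78290840, from the RefSeq promoter table for GRCm38.p6, and the capitals mark the match to the nuclear receptor half-site AGGTCA on the opposite strand.

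Rskr upstream gap: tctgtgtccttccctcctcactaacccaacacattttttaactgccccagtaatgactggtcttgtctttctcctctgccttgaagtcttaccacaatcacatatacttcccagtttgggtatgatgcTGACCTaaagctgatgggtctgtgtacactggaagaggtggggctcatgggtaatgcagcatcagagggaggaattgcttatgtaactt

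The gap overlapped 0 annotated exons and held 0 CpG dinucleotides, where the median of 32817 promoter windows of the same length was 5 and 9.58% had none. Its GC content was 46.1%, against a median of 52.5%. Searched on both strands, the half-site AGGTCA matched at positions -89 to -84 before the start, as it does somewhere in 12.3% of the windows. There was no match to the OTX and CRX core TAATCC, the LIM homeodomain core TAATTA, the Onecut core ATCAAT, the TATA box TATAAA or the E-box CANNTG. These motifs were present in 5.30%, 4.10%, 5.69%, 10.8% and 61.3% of all windows. A match or its lack describes the letters of this stretch and nothing about binding.

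Rskr RNA was close to undetected at P6, scarce at P8 and present in most horizontal cells at P11. The P6 library held 64 Rskr UMIs, the P8 library 394 and the P11 library 6525. In CPM, P6 stood at 0.778 (95% Poisson interval 0.599 to 0.993), P8 at 6.30 (5.69 to 6.96) and P11 at 63.3 (61.7 to 64.8). The intervals of the ages did not overlap. The P8 level was 8.10 times that at P6 (exact conditional interval 6.21 to 10.7) and the P11 level was 10.0 times that at P8 (9.06 to 11.1), so the intervals of the steps overlapped on the fold scale while most of the difference in transcripts lay between P8 and P11. From P6 to P11 the ratio was 81.3 (63.6 to 106).

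**Figure D1:**
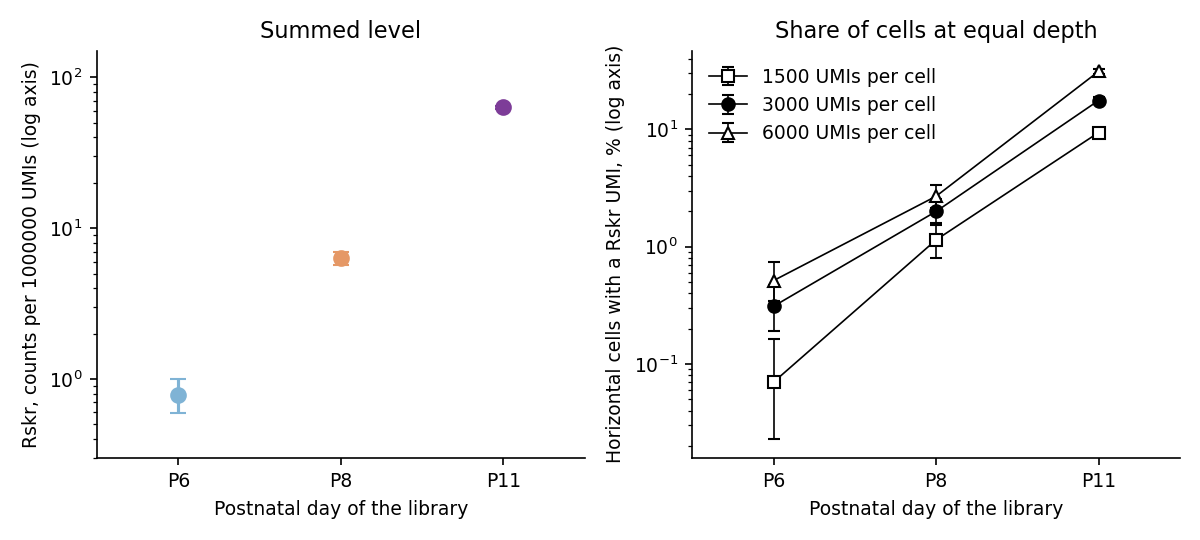
Rskr by age in horizontal cells, 1 library per age. Left, the summed level in counts per 1000000 UMIs with 95% Poisson intervals, at 0.778, 6.30 and 63.3; right, the percent of cells with at least 1 Rskr UMI after every cell was thinned to 1500, 3000 or 6000 UMIs, with 95% Clopper-Pearson intervals. At each depth P11 lies above P8 and P8 above P6.

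The share of cells with Rskr followed the same order at equal depth. As counted, a Rskr UMI was held by 63 of 7145 P6 cells (0.882%), 333 of 3153 P8 cells (10.6%) and 3243 of 4757 P11 cells (68.2%). Because deeper cells yield more genes, each cell was thinned to 3000 of its UMIs and 377, 97 and 90 shallower cells were left out. The P6 share was then 0.310% (95% Clopper-Pearson interval 0.192 to 0.474), the P8 share 1.996% (1.53 to 2.56) and the P11 share 17.6% (16.6 to 18.8). The mean over all possible draws was 0.237%, 1.82% and 17.3%. A cell that held Rskr held in age order 1.02, 1.18 and 2.01 UMIs of it on average. Barcodes that passed the quality limits without a UMI of the 3 gate genes served as background. Of these, 1 of 197 (0.508%) held Rskr at P6, 0 of 63 at P8, which allows up to 5.69%, and 12 of 111 (10.8%) at P11, at median depths of 2314, 3018 and 3463 UMIs. At 1500 UMIs per barcode the P11 share was 3.64% of 110 such barcodes (0.9995 to 9.05) and 9.40% of horizontal cells (8.58 to 10.3). At P8 it was 0 of 62 (up to 5.78%) against 1.14% (0.801 to 1.58). The intervals of these shares overlap slightly at P11, and at P6 and P8 the horizontal cells could not be told apart from this background. A low share at these depths therefore does not separate cells without the RNA from cells that were sampled too thinly. In summed CPM at P11, the background barcodes had 28.6 (15.7 to 48.0) and the horizontal cells 63.3 (61.7 to 64.8). These 2 intervals did not overlap, and they count UMIs as independent.

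Between cells of 1 library, Rskr was spread more widely than a single level per UMI would give, yet with no separate high group in the counts. At P8 the highest count in a cell was 4, and 2820 cells held 0 Rskr UMIs where a single level would give 2785. At P11 the highest count was 8, 1514 cells held 0 UMIs against 1335 for a single level, and 143 cells held 5 or more against 92.5. The variance over the mean was 1.23 at P8 and 1.37 at P11, against 1.01 and 1.14 for a single level. The plot of UMIs per cell shows 1 falling tail at each age.

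**Figure D2:**
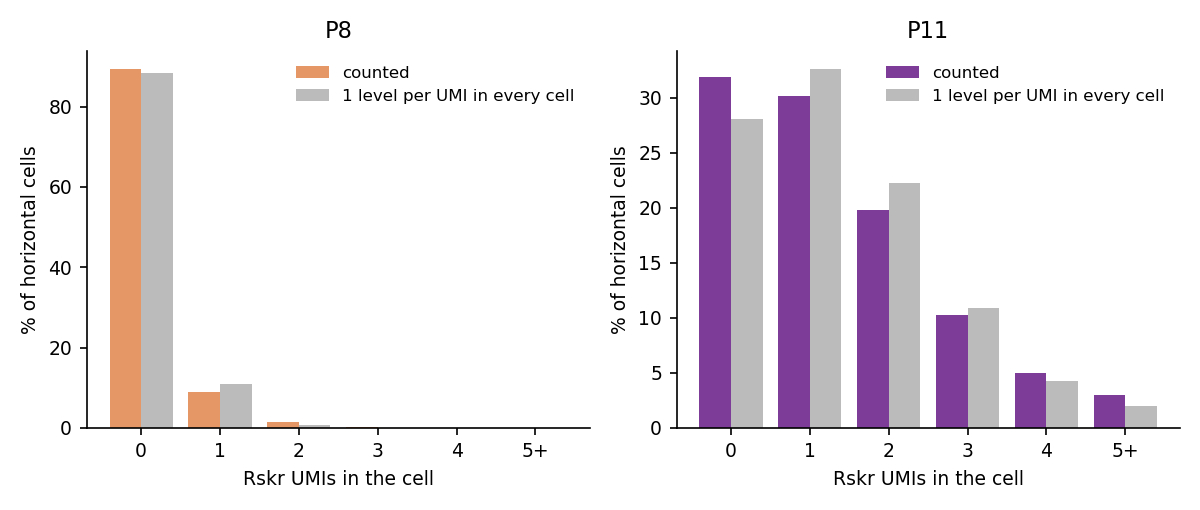
Rskr UMIs per horizontal cell at P8 (left) and P11 (right), as a percent of cells. Coloured bars are the counts and grey bars what 1 level per UMI in every cell would give at the same depths; at P11 the coloured bars exceed the grey ones at 0 UMIs (31.8% against 28.1%) and at 4 and more.

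Depth and sex-linked RNA were set beside these levels. At P11 the Rskr level in quintiles of cell depth lay between 59.8 and 67.9 CPM, with the highest value in the shallowest quintile. At P8 it was 5.16 CPM in the shallowest quintile (3.53 to 7.28) and 8.52 in the deepest (7.20 to 10.0), with the lowest value, 3.53, in the second shallowest. Cells with Xist and cells with Y-linked UMIs had nearly the same level at P11, 63.4 and 63.6 CPM. At P6 the values were 0.692 CPM (0.482 to 0.962) in Xist cells and 0.945 (0.592 to 1.43) in Y-linked cells, which overlap. In Y-linked cells alone, the kind that the P8 library held, the ratios were 6.73 for P8 over P6 (4.38 to 10.9), 10.0 for P11 over P8 (9.004 to 11.1) and 67.2 for P11 over P6 (44.4 to 107).

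Few genes differed as much between P8 and P11. Ranked on log2(CPM + 0.5), Rskr had the highest P11 to P6 ratio of the 7161 genes that reached 20 CPM at either age. For P11 over P8 it was the second of 6770, behind Xist, which was at 0 in the P8 library. Among 6597 genes at or above 20 CPM at P11, 7 besides Xist stood at least 4-fold higher than at P8. Rskr led them at 10.0-fold, followed by Gm45459 (5.41), the transcription cofactor gene Vgll3 (4.90), the GTPase activating gene Dlc1 (4.55), Gm45460 (4.42), the potassium channel regulator Abcc9 (4.35) and the tubulin gene Tuba4a (4.28). In age order Gm45459 stood at 41.7, 42.6 and 231 CPM and Dlc1 at 12.6, 11.8 and 53.9, so these genes shared the late step with Rskr and lacked the earlier one.

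The genes nearest to Rskr in their whole age profile were, like it, higher at each later age. Likeness was the distance between log2(CPM + 0.5) profiles over the 3 ages, each centred on its own mean, among 6331 genes. The nearest was D16Ertd472e (distance 1.26), at 1.90, 10.9 and 38.3 CPM in age order. Vgll3 came next (1.33), at 2.14, 7.20 and 35.3 CPM. It was followed by Bmp4 (1.58), a secreted signal of the BMP family, at 2.24, 13.9 and 35.02 CPM, and by Lynx1 (1.58), a modulator of nicotinic receptors, at 26.3, 99.5 and 301 CPM. Mgarp (1.61), a mitochondrial protein gene used as a horizontal cell marker, went from 160 to 2641 and 5433 CPM. Thrsp, the metallothionein gene Mt1 and Abcc9 completed the 8, at distances of 1.83 to 1.97. A profile over 3 libraries has few points, and between the cells of the P11 library none of the 8 followed Rskr: their correlations with it lay between -0.02 and 0.06.

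Genes that varied with Rskr from cell to cell at P11 were few and weak. Pearson's r was taken across the 4757 P11 cells between log2(counts per 10000 UMIs + 1) of Rskr and of each of 6331 genes. The median was -0.001, the central 95% of genes lay between -0.07 and 0.08, and 0 genes reached 0.2 in either direction. An r of 0.1 or more was found for 83 genes, and of -0.1 or less for 26. The cells share 1 library and its free RNA, and values of this size in sparse counts are no finding, so the genes are named as a description.

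The highest r belonged to Snhg11 (0.18), a long noncoding RNA of neurons, the cell adhesion gene Lsamp (0.17) and the alpha-catenin gene Ctnna2 (0.17). Others among the 12 highest were Nebl, Hs6st3, Egfem1, Anks1b, Nrxn3, Rorb, Fry and Galnt18, at 0.15 to 0.16. Nrxn3 encodes a neurexin, a presynaptic adhesion protein, and Rorb a nuclear receptor. Malat1 ranked 14th at 0.15. The lowest r belonged to Tubb2b (-0.14), a tubulin of young neurons, Stmn3 (-0.13), Tmsb10 (-0.13), Tagln3 (-0.13), Ndufa4 (-0.12) and Actg1 (-0.12). When cells were thinned to 6000 UMIs, the 12 highest fell to between 0.06 and 0.10 and the 6 lowest moved to between -0.07 and -0.05.

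Both ends of the ranking had features that the correlation did not use. The 12 genes of highest r had a median genomic span of 670 kb (range 10.5 to 2197). The 6 of lowest r had a median of 5.46 kb (1.40 to 13.4), against 29.9 kb over the ranked genes. Genes at both ends were also abundant, between 224 CPM (Tubb2b) and 7085 CPM (Lsamp) at P11, where the minimum for ranking was 20 CPM. All 12 of the highest were lowest at P8, unlike Rskr: Lsamp stood at 9323, 3696 and 7085 CPM in age order, and Snhg11 at 1380, 1200 and 1836. Among all measured genes, 24.9% were at least 1.5-fold lower at P8 than at P6 and 7.35% were higher. The share of ranked genes that were lowest at P8 was not counted, so this is not read as particular to the 12. Along the Malat1 share of a cell's UMIs, the P11 level of Rskr went from 50.0 CPM in the lowest quintile (46.9 to 53.3) to 72.0 in the highest (68.4 to 75.8). At P8 it went from 3.41 (2.47 to 4.60) to 8.11 (6.52 to 9.97). Malat1 is held in the nucleus and long genes leave much unspliced RNA there. Whether the nuclear share of a cell's RNA has a part in these correlations was not tested.

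Cells with and without a Rskr UMI differed in some of the genes set beside Rskr. In the P8 split, the genes named below whose interval missed 1 leaned the way they differed from P8 to P11. Not all of them leaned the way they differed from P6 to P11. At P8, where 10.6% of cells held Rskr, Mgarp stood at 3234 CPM in the 333 cells with a Rskr UMI and 2559 in the 2820 without, a ratio of 1.26 (1.25 to 1.28). Calb1, the calbindin gene that marks horizontal cells, gave 1.21 (1.19 to 1.23), and the pentose phosphate enzyme gene Tkt 1.18 (1.14 to 1.22). All 3 were higher at P11 than at P8. Lynx1 gave 1.09 (1.01 to 1.17) and Vim 1.02 (1.01 to 1.04). The intervals of Thrsp, 1.01 (0.938 to 1.09), and Aldoc, 0.981 (0.905 to 1.06), held 1. Lynx1, Vim, Thrsp and Aldoc were higher at P11 than at P8 as well. Of the genes of highest r, Ctnna2 gave 1.24, Egfem1 1.23, Lsamp 1.20 and Hs6st3 1.16. These were also higher at P11 than at P8. From P8 to P11 Ctnna2 went from 611 to 1448 CPM and Egfem1 from 330 to 752. Lsamp went from 3696 to 7085 CPM and Hs6st3 from 778 to 1976. Unlike Mgarp, Calb1 and Tkt, they were lower at P8 than at P6. The intervals of this split count UMIs as independent and are therefore narrow. Median depths were 22690 UMIs with Rskr and 20451 without.

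Genes that were lower at P11 than at P6 were also divided in the P8 split. At P8 Nnat, an imprinted gene of developing neurons, stood at 226 CPM with Rskr and 333 without, a ratio of 0.679 (0.646 to 0.714). Tubb2b gave 0.749 (0.728 to 0.769), Tmsb10 0.815 (0.797 to 0.833), Marcksl1 0.497 (0.403 to 0.607) and Pyy, the peptide YY gene, 0.344 (0.250 to 0.463). Alk gave 1.02 (0.900 to 1.15) and Gad1, a gene of GABA synthesis, 0.984 (0.738 to 1.29).

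With cells thinned to 6000 UMIs, 80 of 2974 P8 cells held Rskr. The ratios were then 1.24 for Mgarp (1.17 to 1.30), 1.18 for Calb1 (1.11 to 1.26), 0.721 for Nnat (0.595 to 0.866) and 0.668 for Tubb2b (0.597 to 0.746). Those for Pyy, 0.663 (0.213 to 1.57), Marcksl1, 0.542 (0.217 to 1.13), and Gad1, 1.90 (0.751 to 4.03), had intervals that held 1.

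At P11 Mgarp gave a ratio of 1.02 (1.01 to 1.02), Calb1 1.04 (1.03 to 1.05) and Tkt 1.03 (1.02 to 1.04) between the 3243 cells with Rskr and the 1514 without. Nnat gave 0.723 (0.680 to 0.769), Tubb2b 0.779 (0.758 to 0.8002) and Marcksl1 0.315 (0.233 to 0.425), the last from 185 UMIs in 113 cells. Alk, Gad1 and Pyy were also lower in cells with Rskr at P11, unlike Alk and Gad1 at P8. Alk gave 0.888 (0.792 to 0.996). Gad1 gave 0.540 (0.355 to 0.829) from 97 UMIs in 72 cells and Pyy 0.132 (0.0375 to 0.382) from 20 UMIs in 7 cells. Intervals that count UMIs as independent are too narrow for so few cells. At 6000 UMIs per cell Nnat gave 0.888 (0.782 to 1.01), Tubb2b 0.829 (0.784 to 0.877) and Marcksl1 0.339 (0.117 to 0.806). Alk then gave 0.984 (0.781 to 1.23) and Gad1 0.501 (0.148 to 1.36), and the interval of Pyy also held 1. Malat1 gave 1.17 at P8 and 1.16 at P11. A Rskr UMI marks most cells at P11 and few at P8, so the 2 splits do not separate cells at the same point, and the difference between ages was not tested.

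**Figure D3:**
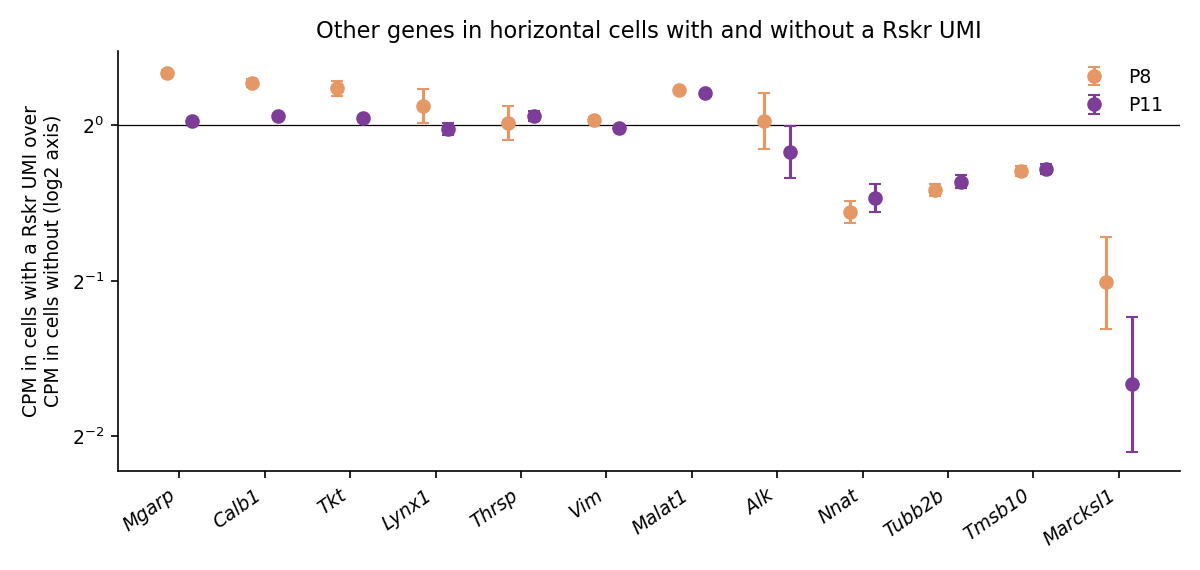
Level of 12 genes in horizontal cells with a Rskr UMI over the level in cells without, at P8 (orange) and P11 (purple), on a log2 axis with 95% conditional intervals that count UMIs as independent. Mgarp, Calb1 and Tkt lie above 1 at P8 and near 1 at P11, while Nnat, Tubb2b, Tmsb10 and Marcksl1 lie below 1 at both ages.

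Cells with and without Vax2, a homeobox gene of the ventral retina, both held Rskr. At P11 the 1463 cells with a Vax2 UMI had 59.7 CPM of Rskr (57.2 to 62.4) and the 3294 without had 65.0 (63.1 to 66.9). At P8 the values were 6.47 (5.46 to 7.61) and 6.21 (5.46 to 7.03), which overlap. At P11 the cells without Vax2 had the higher level, and the intervals missed each other narrowly. They count UMIs as independent, while Rskr was spread more widely between P11 cells than counting error gives, so they are too narrow. Split the other way at 6000 UMIs per cell, Vax2 in P11 cells with Rskr over those without gave 0.889 (0.745 to 1.06), which holds 1. A difference between these cells was not tested.

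The neighbours of Rskr on chromosome 11 did not move as a block. Within 250 kb of either end lie 31 counted genes, of which 19 had at least 5 CPM at P6 or P11 and 4 were at 0 UMIs in all libraries. A gene was called at a ratio of 1.5-fold or more. Of the 19, 3 were higher at P11 than at P6, beside 8.09% of the 10514 genes that reached 5 CPM, and 4 were lower, beside 15.4%. The median log2 ratio of the 19 was 0.06 and that of all measured genes -0.09. From P8 to P11, 2 of 19 were higher (Spag5 and Fam222b, beside 11.4% of all genes) and 2 lower (Rab34 and Unc119, beside 4.68%). Scaling by TMM or by median-of-ratios factors raised every P11 to P6 log2 ratio by 0.20 and turned the split of all called genes from 851 higher and 1618 lower to 1513 and 1026, and to 1505 and 1024. The neighbours then counted 6 higher and 3 lower: Eral1, 2610507B11Rik and Pigs passed 1.5-fold and Unc119 no longer did.

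**Figure D4:**
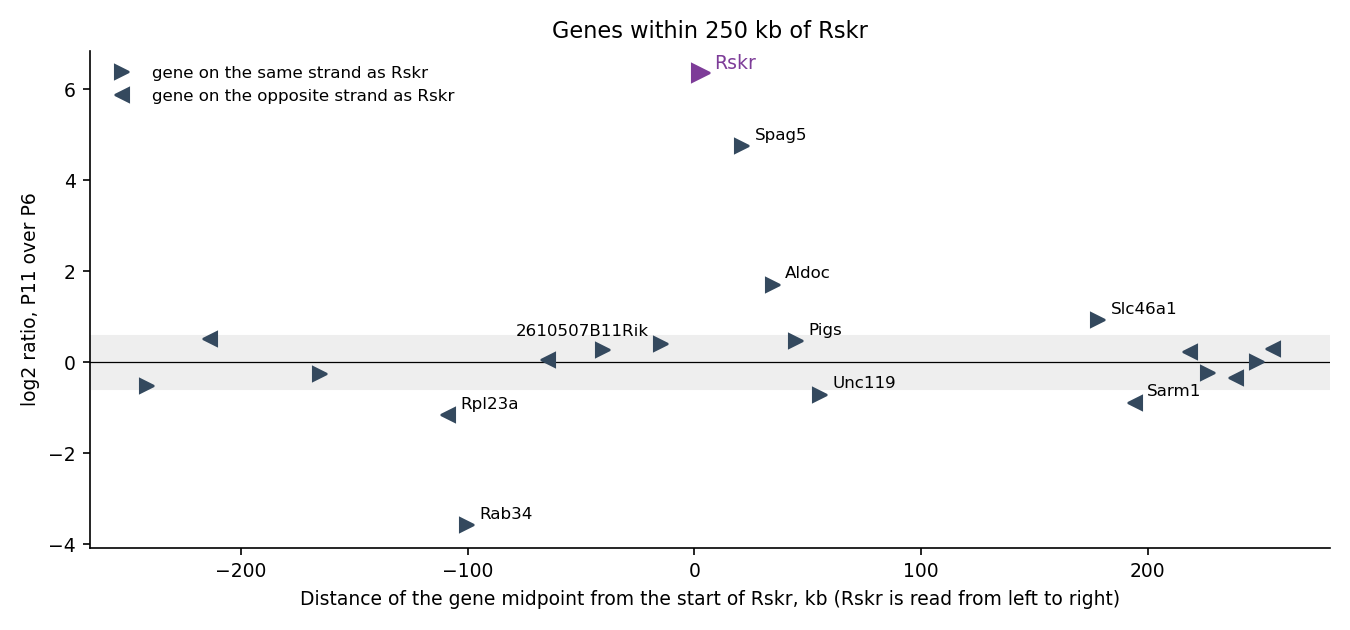
Log2 ratio of P11 over P6 for Rskr and the 19 measured genes within 250 kb, against the distance of their midpoint from the Rskr start in kb. Triangles point in the direction of transcription relative to Rskr and the grey band marks ratios under 1.5-fold; Spag5 and Aldoc, just downstream, lie above the band and 2610507B11Rik, just upstream, lies within it.

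The closest gene on each side behaved differently. Upstream, 2610507B11Rik stood at 62.3, 86.4 and 81.8 CPM in age order, a P11 to P6 ratio of 1.31 (1.27 to 1.36), or 1.51 by TMM scaling. After thinning to 3000 UMIs its UMIs were in 16.2%, 22.6% and 22.8% of cells. So the gene that ends 217 bases before Rskr did not show the step from P8 to P11. Downstream, Spag5 begins 4.72 kb after the end of Rskr and is read in the same direction. It encodes a protein of the mitotic spindle. The 3 libraries held 17, 45 and 572 UMIs of it, or 0.207, 0.720 and 5.54 CPM.

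Among the measured neighbours Spag5 had the highest ratios for both P11 over P6 and P11 over P8, at low levels. Its P11 to P6 ratio was 26.8 (16.6 to 46.4) and its P11 to P8 ratio 7.70. The summed level of the cycling cell markers Mki67, Top2a, Ccnb1 and Cdk1 went from 0.389 to 0.240 and 0.145 CPM. Between P11 cells, Spag5 had an r of 0.03 with Rskr, ranking 1045th, and stood at 5.83 CPM in cells with Rskr and 4.82 in cells without, a ratio of 1.21 (0.998 to 1.47). The files count UMIs per gene and do not place them, so reads that run past the end of Rskr into Spag5 cannot be told apart from transcripts that start at Spag5.

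Aldoc, the gene of the glycolytic enzyme aldolase C, begins 26.2 kb downstream. Its levels were 41.1, 94.9 and 134 CPM, a P11 to P6 ratio of 3.25 (3.13 to 3.38). Most of its difference in CPM lay between P6 and P8, unlike that of Rskr, and its r with Rskr at P11 was 0.00. Past Aldoc, Pigs stood at 25.4, 25.03 and 35.004 CPM. Unc119, a photoreceptor trafficking gene, stood at 42.7, 43.3 and 26.1 CPM, a ratio of 0.611 (0.581 to 0.642). Slc46a1, the folate transporter gene, was the third neighbour called higher, at 4.35, 5.52 and 8.23 CPM.

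Farther upstream, 2 measured genes were called lower by total UMIs and none higher, while Eral1 stood at 10.8, 15.6 and 15.4 CPM, a ratio of 1.42, or 1.63 by TMM scaling. Sdf2 stood at 58.0, 90.1 and 69.7 CPM and Supt6, a transcription elongation factor gene, at 58.0, 67.9 and 60.3. Rab34, a small GTPase of the primary cilium, went from 23.9 to 8.27 and 1.997 CPM, a ratio of 0.0836 (0.0720 to 0.0965). The ribosomal protein gene Rpl23a had a ratio of 0.447 and the NAD hydrolase gene Sarm1, which lies downstream, 0.541. Traf4 entered no count, as it was below 5 CPM, and went from 4.07 to 1.02 and 0.388 CPM. Gm3948, which overlaps Rskr on the opposite strand, had 3, 4 and 45 UMIs. Over the measured neighbours, r with Rskr between P11 cells lay between -0.06 and 0.03.

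Of the 10 other members of the family, 9 had at least 5 CPM at P6 or P11, and from P6 to P11 0 of them passed 1.5-fold upward and 3 downward (8.09% and 15.4% of all measured genes), with a median log2 ratio of -0.33. Among the RSK genes, Rps6ka6 went from 9.29 to 6.91 and 4.21 CPM, Rps6ka1 from 5.70 to 3.52 and 2.94, and Rps6ka3 from 50.2 to 21.7 and 29.7. These 3 made up the lower calls, and Rps6ka3 was not called by TMM scaling (ratio 0.680). Rps6ka2, also an RSK gene, stood at 59.4, 38.4 and 67.8 CPM. The p70 kinase genes Rps6kb1 and Rps6kb2 went from 75.8 to 59.0 and 60.3 CPM and from 33.6 to 22.7 and 24.4 CPM. From P8 to P11, 3 of 8 measured members were higher and 1 was lower, beside 11.4% and 4.68% of all genes. The higher ones were Rps6ka2 (1.77), Rps6kc1 (1.57) and Rps6ka5 (1.51), which stood at or below 1.14 times their P6 level at P11. Rps6ka5, Rps6kc1 and Rps6kl1 had P11 to P6 ratios between 0.890 and 1.05, and Rps6ka4, the member below the minimum, stood at 0.535, 1.30 and 1.21 CPM.

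**Figure D5:**
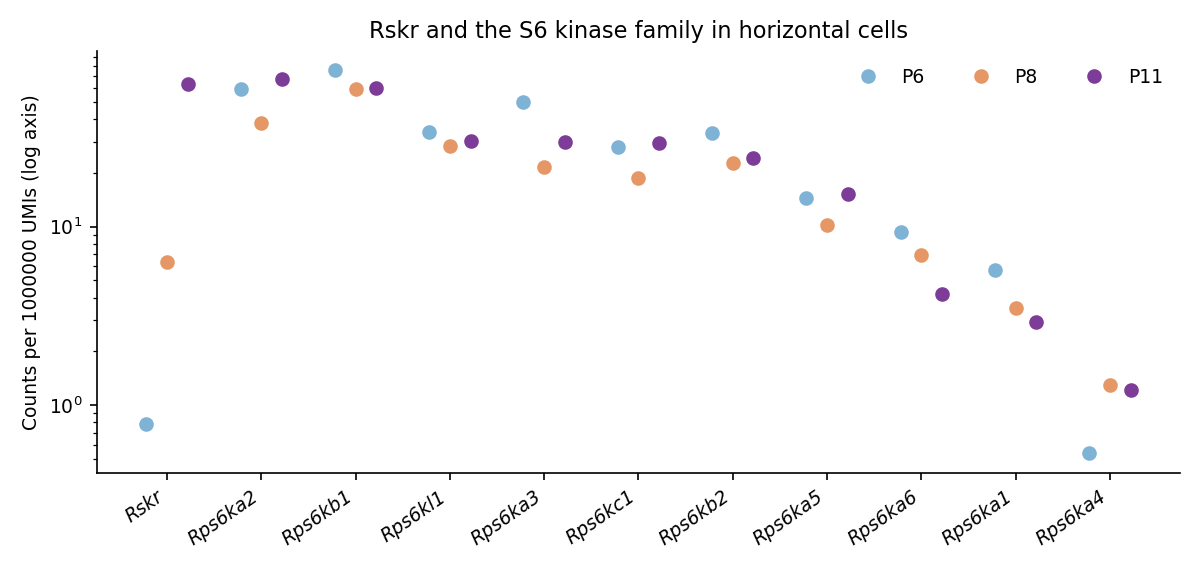
Level of Rskr and the 10 other S6 kinase family genes in horizontal cells at P6, P8 and P11, in counts per 1000000 UMIs on a log axis, 1 library per point. Rskr spans 0.778 to 63.3 CPM while Rps6ka3, for example, spans 21.7 to 50.2; levels of different genes are not comparable, since 3' counts depend on each gene's ends.

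Scaled by total UMIs, other AGC kinase genes were lowest at P8 on balance, and measured genes as a whole leaned the same way. From P6 to P8, 0 of 36 measured were higher and 13 lower, beside 7.35% and 24.9% of all genes. The median log2 ratio was -0.49, against -0.20 for all genes. From P8 to P11, 8 of 35 were higher and 0 lower, beside 11.4% and 4.68%, with a median of 0.38 against 0.11. The calls for these steps were not repeated under other scalings. From P6 to P11, 5 of 37 were higher and 3 lower, beside 8.09% and 15.4% of all genes. The highest were Stk32b (1.56, 1.41 and 9.94 CPM, ratio 6.39), the protein kinase C genes Prkcq (ratio 3.33) and Prkci (2.501), and Sgk1, a kinase induced by serum and glucocorticoids (163, 118 and 322 CPM, ratio 1.97). Stk32b shared with Rskr the late step. The lower ones were Stk32c (0.394), Prkca (0.458) and Grk5 (0.648), and Grk5 was not called by TMM scaling (0.743).

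Of 31 measured genes of the mTORC1 and S6 pathway, 2 were higher at P11 than at P6 and 1 was lower, where 8.09% and 15.4% of all genes were. Rheb, the GTPase that activates mTORC1, stood at 283, 514 and 464 CPM and the mTORC1 inhibitor gene Ddit4 at 7.24, 8.01 and 12.1, with ratios of 1.64 and 1.67. Eif4ebp2, a repressor of translation, was lower at 0.634. By TMM scaling, which called 14.4% of all genes higher and 9.76% lower, 7 were higher and 0 lower, Tsc2, Lamtor1, Lamtor4, Lamtor5 and Sesn3 being added at ratios of 1.51 to 1.65. Of 14 measured genes of the ERK pathway, the feedback inhibitor gene Spry2 was higher (1.77) and Spry4 (0.470), Spred2 (0.473) and the target gene Etv5 (0.3202) were lower, again beside 8.09% and 15.4%. By TMM scaling Map2k1 was added to the higher ones (1.66).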

How the data were processed

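The authors deposited whole-number UMI counts per gene and barcode for each of the 3 libraries. The submitters' processing notes name Cell Ranger 7.1.0 and the build mm10. No source used here states the annotation release or the treatment of intron reads. No doublet caller was run; an alternative left out the 5% of cells with the most UMIs. No columns of unknown samples were present.

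Rskr, the gene lists and the genes set beside Rskr were chosen with earlier results of these data known. Each library's counts were added up over its horizontal cells and scaled to 1000000 UMIs (CPM). Sums carry exact Poisson, ratios exact conditional binomial and shares Clopper-Pearson 95% intervals. Thinning drew UMIs from each cell without replacement. Genes named are Rskr, its neighbours within 250 kb with at least 5 CPM at any age, the 12 highest and 6 lowest in r, the 8 nearest profiles, list members past 1.5-fold (at most 4 each way), the whole S6 kinase family and 14 genes set beside Rskr between cells. Traf4, Gm3948, the 7 genes past 4-fold from P8 to P11 and the list members that pass by other scalings were named after their values were seen. Not every gene picked by these rules is reported here.

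Gene positions came from GENCODE vM21 (32158 of 32285 IDs matched), where Rskr is listed as BC030499. Alternatives used edgeR 4.0.16 (TMM factors) and DESeq2 1.42.0 (median-of-ratios factors) for scaling alone, never for a test. Scripts ran in Python 3.11.15 with numpy 2.4.6 and scipy 1.17.1, and the ratio and correlation steps were tested on simulated data.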

Additional observations from a re-analysis of the deposited data

Results flagged for a closer look

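Barcodes outside the horizontal cells used above also held Rskr UMIs, above what a count of 0 allows. At P11 the level was 28.6 CPM in 111 barcodes with no UMI of the 3 gate genes, 41.1 CPM in 75 barcodes with 1 of them, 54.0 CPM in 408 barcodes below the gene minimum and 102.3 CPM (84.9 to 122) in 166 barcodes above the mitochondrial limit. The last exceeded the 63.3 CPM of the horizontal cells, and those barcodes also had 55710 CPM of the nuclear RNA Malat1, against 21409. At P8 the barcodes above the mitochondrial limit held 7.60 CPM (4.05 to 13.0). At P6 barcodes above the mitochondrial limit held 1.63 CPM (0.530 to 3.81) and those below the gene minimum 3.58 CPM (1.16 to 8.36), each from 5 UMIs. P11 had the highest value of the 3 ages in each of these sets. Below the gene minimum P6 and P8 gave 3.58 and 3.54 CPM, and barcodes with no gate gene UMI held 1 Rskr UMI at P6 and 0 at P8.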

How the results depend on the processing

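The Rskr ratios moved by less than their intervals under every alternative run. P11 over P6 ranged from 67.2 (Y-linked cells, chosen after seeing the data) to 93.3 (TMM factors), and P11 over P8 from 9.24 to 10.5. Shares of cells with Rskr scale with depth. They were 0.0700%, 1.14% and 9.40% at 1500 UMIs, 0.514%, 2.69% and 31.2% at 6000 and 0.882%, 10.6% and 68.2% without thinning. Neighbours called higher numbered 1 at a minimum of 20 CPM and 5 of 33 measured within 1000 kb, the latter beside 8.09% of all genes. Under each other scaling they numbered 6 of 19, beside 14.4% of all genes by TMM. The median log2 ratio of the measured neighbours was 0.33 within 100 kb and 0.25 under each other scaling. Its sign turned within 1000 kb (-0.16) and at 20 CPM (-0.24), and the cause was not tested. At 20 CPM fewer genes were measured, and 1 S6 kinase was lower and 3 other AGC kinases were higher. At that minimum 1 mTORC1 gene was higher, and 0 ERK pathway genes were higher and 1 lower. The share of all genes called at 20 CPM is not given, so these counts are not set against it. TMM and median-of-ratios scaling each gave 7 higher and 0 lower of 31 mTORC1 genes and 2 higher of 14 ERK pathway genes. No paired analysis was possible because each age has 1 library. Depth limits P6, where 3 counts correspond to 0.0364 CPM, and the Spag5 ratio, which rests on 17 UMIs at P6.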

Other observations

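Among P11 barcodes with no UMI of the 3 gate genes, Rskr UMIs were found in barcodes with bipolar or amacrine markers and in unassigned ones. The 26 barcodes assigned by bipolar markers held 8 Rskr UMIs in 6 barcodes, or 64.2 CPM (27.7 to 126), which overlaps the horizontal cell level. The 17 assigned by amacrine markers held 4 UMIs, or 34.1 CPM (9.29 to 87.3). The 17 that no marker list claimed held 2 UMIs, or 49.9 CPM (6.05 to 180). The 33 assigned by rod markers held 0 Rskr UMIs of 80729, which allows up to 45.7 CPM, and the 10 assigned by Müller glia markers held 0 as well. In the bipolar barcodes Calb1 stood at 88.2 CPM and the anion exchanger gene Slc4a3 at 88.2 CPM, against 2952 and 2161 in horizontal cells. Mgarp, an abundant horizontal cell RNA, stood at 1396 CPM there, against 5433, and the part of free RNA in these counts was not tested. In the unassigned barcodes Calb1 stood at 899 CPM and Slc4a3 at 2098 CPM, and in the amacrine ones at 324 and 111 CPM. Whether the unassigned barcodes were horizontal cells that the gate missed was not tested. The Rskr intervals of these sets overlap one another.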
